A study of Homo sapiens with 12 samples.

Results

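Within one set of treated stem cell colonies, the cells that had lost a SOX2 reporter were compared gene by gene with the cells that had kept it. The comparison rests on 10 of the 12 libraries of the series, 5 SOX2-negative and 5 SOX2-positive, and covers the 15161 genes that passed a filter on low counts. The members were taken from the sample labels alone, so no measured value chose them. The cells were ESI017, 1 human embryonic stem cell line, with mCitrine, a yellow fluorescent protein, placed at SOX2. They were seeded on micropatterns, glass with printed adhesive areas that confine each colony, and kept for 3 days in the serum-free medium N2B27. Every sorted library came from colonies given FGF8 at 200 ng/ml together with WNT3A at 100, 300 or 1000 ng/ml. Both gates at 100 and 1000 ng/ml had 2 libraries, from a first run and a biological repeat, and both gates at 300 ng/ml had 1. The 2 control libraries, from colonies in N2B27 alone, were not split into gates and are given only for reference. One line was used, so no value below speaks for other lines. The gate was set on reporter protein, which can outlast its messenger RNA, and each gate can hold several cell types.

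Each SOX2-negative library has a partner from the same colonies. The pairs are called A (100 ng/ml, first run), B (100 ng/ml, repeat), C (300 ng/ml, first run), D (1000 ng/ml, first run) and E (1000 ng/ml, repeat). Values are in CPM, counts scaled to library totals of 1000000 after TMM adjustment, as mean ± SD with n = 5 a gate, and the SOX2-negative value stands first. A log2 difference is SOX2-negative minus SOX2-positive, so 1 means 2-fold higher in SOX2-negative cells. Words such as rose, fell or went from compare SOX2-negative with SOX2-positive cells and do not describe a change over time. A gene is called higher or lower where the paired quasi-likelihood test of edgeR gave an adjusted p under 0.05. Unless said otherwise, a named gene kept its call whichever pair was left out and went the same way in all 5 pairs.

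SOX2 is a transcription factor of pluripotent cells that is also kept in cells turning to neural fates. WNT and FGF proteins are secreted signals of the primitive streak, the region of the early embryo where epithelial cells leave the sheet and become mesoderm and endoderm. Cells that pass through it lose SOX2, exchange E-cadherin for N-cadherin, lay down fibronectin-rich matrix and take up endoderm or mesoderm regulators. The genes beyond these regulators, for surface proteins, secreted factors and metabolic enzymes, make up most of what follows.

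SOX2 itself (ENSG00000181449, chromosome 3, 181711924 to 181714436, GRCh38) stood at 5.96, 3.15, 5.51, 5.201 and 1.85 CPM in the SOX2-negative libraries of pairs A to E. In their SOX2-positive partners it stood at 469, 448, 458, 420.1 and 421 CPM. Its message thus followed the reporter in every pair, and the controls held 656 and 678 CPM. The endoderm regulator SOX17 was at 491, 814, 531, 502 and 340.3 CPM in the SOX2-negative libraries and at 1.79, 3.03, 4.58, 3.38 and 8.46 CPM in the SOX2-positive ones. It was listed at 0 in both controls. Fibronectin, FN1, the adhesive matrix protein, reached 6282, 4897, 9559, 8596 and 13581 CPM against 199, 268, 352, 392 and 501 CPM. N-cadherin, CDH2, reached 895, 603, 816, 654 and 729.9 CPM against 70.8, 70.9, 82.8, 94.4 and 78.9 CPM. The gates did not overlap for any of these 4 markers, as for 26.5% of all genes tested. The cells were sorted on a reporter at SOX2, so the separation of SOX2 itself could be foreseen.

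**Figure D1:**
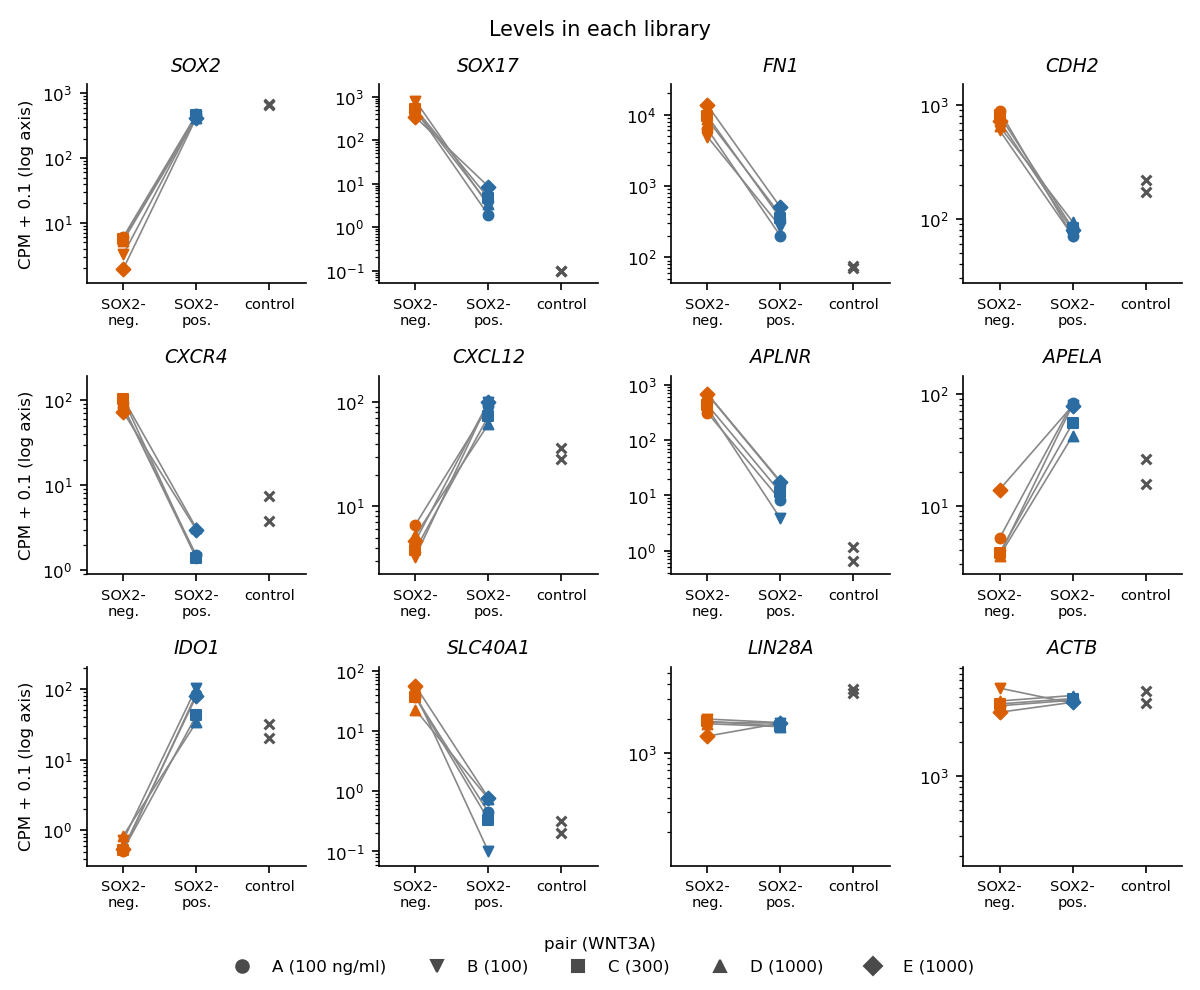
CPM of 12 named genes on a log axis (CPM + 0.1), with SOX2-negative and SOX2-positive libraries of each pair joined by a line and the 2 controls as grey crosses. SOX2 runs down from about 443 CPM in SOX2-positive to 4.34 CPM in SOX2-negative libraries, while LIN28A and ACTB were not called.

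The sorted libraries held 16474856 to 26033016 estimated counts, and replicates of a group differed by far more than counting noise. On the first principal component of the 1000 most variable genes (67.9% of their variance) the SOX2-negative libraries lay at 53.8 to 62.0 and the SOX2-positive ones at -50.4 to -37.1. One library stands apart, the SOX2-negative library of pair B, at 40.1 on the third component against -15.0 to 9.72 for the other 11. Cytosolic ribosomal protein genes summed to 95532 CPM in it against 42198 to 52305 CPM in the other SOX2-negative libraries. Genes that respond within minutes to the handling of dissociated cells also moved with the gate. They summed to 1141 to 2302 CPM in SOX2-negative and 689 to 1330.2 CPM in SOX2-positive libraries, and 9 of 18 were called higher and none lower. Their part in the results below was not tested.

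Of the 15161 genes tested, 4197 were called, which is 27.7%. They divided into 2184 higher (14.4%) and 2013 lower (13.3%) in SOX2-negative cells, and the median log2 difference over all genes was -0.0091. With upper-quartile scaling in place of TMM, 1875 were higher and 2480 lower, at a median of -0.095. The gates did not overlap at all for 4024 genes (26.5%). A test against a change of 2-fold called 1189 genes (7.84%), 681 higher and 508 lower. Among all calls, 305 genes were over 8-fold higher and 171 over 8-fold lower. The number of calls depended on the pairs. It was 2573 without pair A, 6657 without pair B, 2574 without pair C, 2736 without pair D and 3835 without pair E. A core of 2357 genes (15.5%) kept the call in all 5 of these fits and went one way in all 5 pairs, 1306 higher and 1051 lower. In bulk RNA from sorted cells, a lower share of cells with a transcript and less of it in every cell cannot be told apart.

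No gene had a difference between the gates that changed with WNT3A dose at an adjusted p under 0.05 (edgeR, lowest adjusted p = 0.45, with 3 residual degrees of freedom). Without adjustment, 1186 genes had a p under 0.05, and without pair A 1174 genes were called. The gate differences below are therefore averages over the 3 doses. That no slope was called does not show that the doses act alike.

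**Figure D2:**
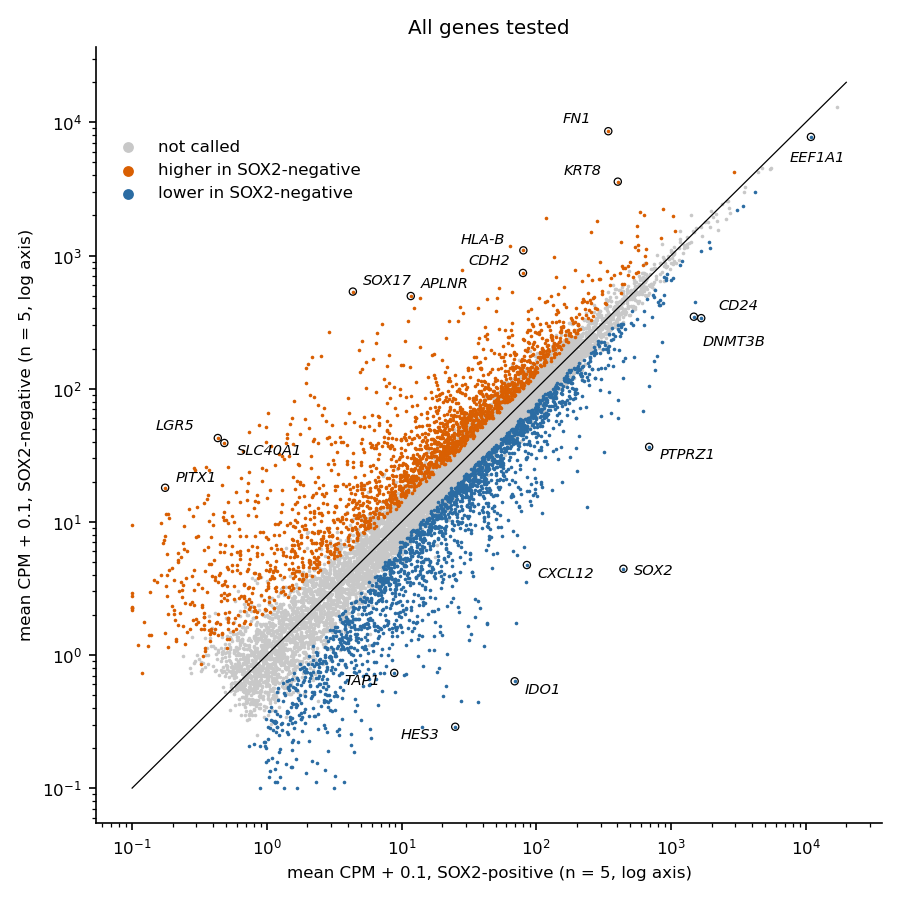
Mean CPM + 0.1 of the 15161 genes tested in the 5 SOX2-positive (x axis) and the 5 SOX2-negative libraries (y axis), both on log axes. Orange points are the 2184 genes called higher and blue points the 2013 called lower in SOX2-negative cells, grey points were not called, and the diagonal marks equal levels.

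Ranked by fold, the genes that were higher in SOX2-negative cells came from many families. PITX1, a homeobox factor of hindlimb and pituitary, stood at 10.1, 29.7, 13.3, 19.8 and 16.6 CPM in pairs A to E against 0, 0.125, 0, 0.119 and 0.136 CPM (log2 difference 7.82 ± 0.41 SE, adjusted p = 2.9e-05). HHIP, a membrane protein that traps hedgehog ligands, reached 25.1 ± 8.69 against 0.1904 ± 0.207 CPM, and the ligand IHH reached 11.3 ± 4.47 against 0.0848 ± 0.0826 CPM. FSHR, known as the receptor of follicle-stimulating hormone, stood at 9.71 ± 3.297 against 0.0628 ± 0.0749 CPM. LGR5, the R-spondin receptor and a WNT target, was at 31.2, 14.7, 41.2, 58.3 and 66.98 CPM against 0.199, 0.125, 0.143, 0.652 and 0.543 CPM. The order of its SOX2-negative values followed the dose in both runs, with the slope not called. GPR55, a lipid-sensing receptor, stood at 24.5 ± 6.08 against 0.194 ± 0.127 CPM. The iron exporter ferroportin, SLC40A1, stood at 38.98 ± 12.3 against 0.384 ± 0.287 CPM (log2 difference 6.74 ± 0.54 SE, adjusted p = 0.00013). GASK1B, a Golgi kinase-like protein, reached 25.8 ± 18.2 against 0.253 ± 0.235 CPM, and PLCXD3, a phospholipase-like protein, 7.79 ± 2.64 against 0.0757 ± 0.113 CPM. COLEC12, a scavenger receptor, reached 265 ± 86.97 against 2.81 ± 1.66 CPM. CRHBP, a secreted carrier of the stress hormone CRH, stood at 11.3 ± 7.03 against 0.0781 ± 0.0709 CPM. The trypsinogen gene PRSS2 (10.6 ± 5.97 against 0.0874 ± 0.113 CPM, summed over 2 identifiers) has a near-identical neighbour, so its value is uncertain. GP1BB, a platelet receptor subunit that overlaps a neighbouring gene and is equally uncertain, stood at 5.43 to 17.7 CPM and was listed at 0 in every SOX2-positive library.

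The genes that fell furthest in fold included regulators, enzymes and a keratin. HES3, a repressor of neural progenitors, went from 26.2, 38.7, 14.8, 11.7 and 33.2 CPM in SOX2-positive to 0.119, 0.504, 0.214, 0.106 and 0 CPM in SOX2-negative libraries. IDO1, the enzyme that opens the tryptophan ring and a gene of interferon responses, went from 85.1, 105, 42.2, 33.7 and 79.1 to 0.417, 0.6305, 0.428, 0.743 and 0.453 CPM (log2 difference -6.91 ± 0.34 SE, adjusted p = 2.3e-05). FOXD3, a factor of pluripotent and neural crest cells, stood at 0.342 ± 0.207 against 36.5 ± 5.77 CPM. MGAT4C, which branches N-glycans, stood at 0.349 ± 0.209 against 27.5 ± 5.44 CPM. Keratin 7, KRT7, was at 0.186 ± 0.178 against 14.1 ± 6.47 CPM, and in the controls at 18.3 and 16.5 CPM. PRDM14, a repressor that guards pluripotency, stood at 1.63 ± 0.886 against 70.6 ± 12.4 CPM. The forebrain factor LHX5 stood at 0.390 ± 0.4995 against 20.2 ± 21.5 CPM, and the SOX2 relative SOX3 at 0.6498 ± 0.528 against 18.1 ± 3.21 CPM. TRIML2 (0.480 ± 0.409 against 21.1 ± 7.11 CPM) and the antiviral TRIM22 (1.63 ± 0.676 against 43.1 ± 2.69 CPM) belong to the tripartite motif family. CR2, the receptor for complement fragments on B cells, stood at 0.136 ± 0.109 against 5.84 ± 1.58 CPM, and the zinc finger BNC2 at 1.07 ± 0.750 against 40.6 ± 17.9 CPM.

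By absolute amount, matrix proteins, keratins and a glucose transporter led the genes that were higher, and the elongation factor EEF1A1, CD24 and DNMT3B led those that were lower. FN1 alone was 8241 CPM higher in SOX2-negative cells. KRT8 (3588 ± 1561 against 403 ± 80.8 CPM), a keratin of simple epithelia, came next, then fibrillin 2, FBN2, a microfibril protein (1910.1 ± 826 against 118 ± 38.9 CPM), and KRT18, the keratin that pairs with KRT8 (1815 ± 709 against 284 ± 71.1 CPM). FSCN1, which bundles actin in cell protrusions, stood at 2111 ± 395 against 588 ± 141 CPM. The glucose transporter SLC2A3 stood at 2010.3 ± 309.7 against 635 ± 35.1 CPM. Connexin 43, GJA1, the main gap junction protein, stood at 2236 ± 521 against 873 ± 50.4 CPM, and the imprinted, retrotransposon-derived PEG10 at 1510.4 ± 844 against 255 ± 24.3 CPM. In the other direction, CD24, a small glycoprotein of the cell surface, stood at 338 ± 62.6 against 1676 ± 326 CPM. The pluripotency factor POU5F1 (444 ± 177 against 1519 ± 385 CPM, summed over 4 identifiers) and the methyltransferase DNMT3B (347 ± 87.3 against 1478 ± 128 CPM) were lower too. PTPRZ1, a receptor phosphatase of neural progenitors, stood at 47.04, 14.04, 42.3, 37.4 and 41.3 CPM against 671, 802, 701, 639 and 628 CPM. TERF1, which binds telomere repeats, was at 69.3, 58.97, 62.6, 65.2 and 85.1 CPM against 678, 743, 587, 496 and 588 CPM. The controls held 207 and 194 CPM of it, so its level was above the controls in all 5 SOX2-positive libraries and below them in all 5 SOX2-negative ones. The deubiquitinase USP9X (log2 difference -1.86), the Polycomb subunit PHC1 (-2.46), the enzyme of lysine breakdown AASS (-2.77) and the selenophosphate synthetase SEPHS1 (-2.20) were also among the 15 largest falls in CPM. So was the elongation factor EEF1A1 (7781 ± 1663 against 10927 ± 1573 CPM), whose call was lost without the pairing.

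Of 659 surface proteins tested, 162 were higher and 130 lower, or 44.3% called beside 27.7% of all genes. With a pair left out, 115 to 212 were higher and 83 (without pair A) to 174 (without pair B) lower.

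Cadherins, the calcium-dependent adhesion proteins, changed in both directions (13 were higher and 8 lower of 32 tested, with a median log2 difference of 0.093). CDH2 was 9.31-fold higher and E-cadherin, CDH1, 3.71-fold lower in SOX2-negative cells. On the RPKM scale, which is CPM per kilobase of transcript, CDH2 went from 16.1 to 149 and CDH1 from 70.9 to 19.5. There CDH2 was thus the lower of the pair in SOX2-positive cells and the higher in SOX2-negative cells. CDH1 was not silent, at 74.2 to 167 CPM in every SOX2-negative library. CDH6, a cadherin of neural plate and kidney, stood at 1.18 ± 0.303 against 31.4 ± 8.999 CPM, while the controls held 169 and 147 CPM. CDH8 (log2 difference 3.21) and CDH12 (5.12), known from neurons, and the endothelial CDH5 (3.28) were higher. EPCAM, an epithelial adhesion protein, was also higher (395 ± 57.04 against 232 ± 25.03 CPM), opposite to CDH1. Without pair A 5 cadherins were lower in place of 8. In the protocadherins, 8 were higher and 11 lower of 51 tested (7 lower without pair A), or 37.3% called beside 27.7% of all genes. PCDH17 (log2 difference 4.26) and PCDH7 (3.56) rose, and PCDHAC2 (-4.22) and PCDH11X (-3.12) fell.

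Integrins, the receptors that grip matrix, included 6 higher and 3 lower of 25 tested, or 36.0% called beside 27.7% of all genes. The counts were alike with any pair left out, except 9 higher without pair B. ITGA5, the partner of integrin beta 1 in the fibronectin receptor, rose with FN1 itself, at 494, 638, 632, 674 and 431 CPM against 40.6, 42.9, 54.4, 68.2 and 56.3 CPM. ITGA8 (log2 difference 6.20), ITGA11 (3.83) and ITGA9 (3.08) rose as well. The collagen receptor subunit ITGA2 (log2 difference -2.99), the hemidesmosome subunit ITGB4 (-2.12) and ITGA4 (-2.06) fell. FLRT3, a leucine-rich repeat protein that acts in cell spacing and FGF signalling, stood at 121, 81.9, 98.9, 82.1 and 125 CPM against 2.89, 8.73, 1.72, 2.07 and 11.1 CPM. It was low in all SOX2-positive libraries, and the controls, at 49.6 and 68.1 CPM, lay between the gates. LRRTM3, a synaptic relative, fell (0.0119 ± 0.0267 against 2.23 ± 0.866 CPM). Of 13 claudins, the strands of tight junctions, CLDN18 (log2 difference 3.40) and CLDN11 (1.62) rose and CLDN10 (-1.33) fell. A further member, not called in every leave-one-out fit, made 3 higher in all, and without pair B 4 were lower. The share of claudins called, 30.8%, was near the 27.7% of all genes.

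Receptors for growth factors differed in which ones each gate held. Among receptor tyrosine kinases 12 were higher and 9 lower of 33 tested, with a median log2 difference of -0.14. PDGFRA, the PDGF receptor of mesoderm, stood at 26.9 ± 21.03 against 2.77 ± 0.595 CPM, ROR2, a WNT5A receptor, at 146 ± 22.9 against 21.7 ± 5.996 CPM and FGFR4 at 295 ± 101 against 94.5 ± 11.9 CPM. KIT, the stem cell factor receptor, stood at 355, 251, 277, 168 and 226 CPM against 41.96, 52.1, 37.3, 34.3 and 47.6 CPM with no overlap. MET, the HGF receptor, fell most (1.55 ± 0.468 against 19.2 ± 4.05 CPM). RET (log2 difference -1.23), ERBB3 (-1.20) and ERBB2 (-1.04) also fell.

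G protein-coupled receptors for peptides and lipids had more higher than lower calls (15 were higher and 6 lower of 35 tested, with a median log2 difference of 0.34). APLNR, the apelin receptor of mesendoderm, stood at 312, 379, 434, 686 and 669.9 CPM against 8.12, 3.74, 11.2, 17.8 and 17.1 CPM and in the controls at 0.563 and 1.07 CPM. Its peptide ligand APELA went the other way, at 5.01, 3.49, 3.69, 3.45 and 13.8 CPM against 82.7, 79.03, 54.4, 41.8 and 78.2 CPM. CXCR4, the receptor of the chemokine CXCL12, stood at 82.6, 83.1, 103, 104 and 71.9 CPM against 1.395, 1.29, 1.29, 3.02 and 2.896 CPM. CXCL12 was likewise opposite, at 6.56, 3.19, 3.74, 5.15 and 4.53 CPM against 90.6, 100.4, 72.95, 61.3 and 100 CPM. In both of these ligand and receptor pairs the receptor was higher in every SOX2-negative library than in any SOX2-positive one, and the ligand was lower. PTGFR, a prostaglandin receptor, rose (3.85 ± 1.11 against 0.0829 ± 0.0701 CPM), while LPAR3, a lysophosphatidic acid receptor, fell (1.72 ± 0.249 against 11.3 ± 1.597 CPM). Counts that moved by over 1.5 times with a pair left out were 3 lower without pairs A, C and D.

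Guidance cues and their receptors, which steer migrating cells and axons, had more higher than lower calls (24 were higher and 8 lower of 48 tested, with a median log2 difference of 0.58). PLXNA2, a semaphorin receptor, stood at 206, 143, 271, 295 and 188 CPM against 3.99, 4.12, 6.01, 8.12 and 9.55 CPM. Its co-receptor NRP1 stood at 38.8 ± 24.5 against 1.296 ± 0.6001 CPM. The netrins NTN4 (log2 difference 4.59) and NTN1 (3.45) and the netrin receptor UNC5C (4.36) rose. The related netrin receptors UNC5A (log2 difference -2.19), UNC5B (-1.24) and UNC5D (-1.18) fell. SEMA3A fell (24.1 ± 6.85 against 59.3 ± 13.03 CPM). Counts that moved by over 1.5 times with a pair left out were 15 higher without pairs C and D. Among Eph receptors and ephrins, which sort cells at tissue borders, 7 were higher and 5 lower of 21 tested, with a median log2 difference of 0.091. EPHB3 (log2 difference 3.92) and EPHA2 (2.73) rose, while EPHB1 (-2.36) and the ligand EFNB2 (-1.96) fell.

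Transporter genes moved both ways. Of 281 solute carriers, 59 were higher and 44 lower, or 36.7% called beside 27.7% of all genes. With upper-quartile scaling 49 were higher and 53 lower. SLC28A2, a nucleoside transporter, stood at 12.4 ± 11.8 against 0.165 ± 0.206 CPM. SLC30A4, which exports zinc, stood at 4.38 ± 2.06 against 0.09796 ± 0.0755 CPM, and SLC1A7, a glutamate transporter, at 2.67 ± 1.17 against 0.0817 ± 0.0723 CPM. By amount, SLC7A5, which brings in large neutral amino acids, stood at 508, 594, 522, 533 and 232 CPM against 80.03, 63.1, 138, 161 and 80.01 CPM. SLC39A8, an importer of zinc and manganese, stood at 181 ± 23.4 against 17.2 ± 5.93 CPM, and SLCO2A1, a prostaglandin transporter, at 167 ± 98.6 against 6.06 ± 1.56 CPM. The lactate exporter SLC16A3 stood at 209 ± 113 against 56.8 ± 8.31 CPM. The glutamate transporter SLC1A1 (log2 difference -3.41), the amine transporter SLC18A2 (-4.11) and the amino acid transporter SLC38A4 (-3.96) fell. Counts that moved by over 1.5 times with a pair left out were 32 higher without pair C, 33 without pair A and 36 without pair D, and 26 lower without pair A and 29 without pairs C and D. Voltage-gated channels, known mainly from nerve and muscle, had 8 higher and 13 lower (8 without pair C) of 43. The potassium channel subunits KCND2 (log2 difference -4.60) and KCNG3 (-4.63) fell, and KCNH5 (3.22) rose.

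Genes of antigen presentation split within the pathway. MHC class I molecules show peptides on the cell surface. The immunoproteasome subunit PSMB8 cuts the peptides, ERAP1 trims them, TAP1 and TAP2 pump them into the endoplasmic reticulum, and TAPBP helps to load them. Of 15 genes tested, 2 were higher and 8 lower, with a median log2 difference of -1.14. The heavy chain gene HLA-B stood at 754, 2777, 624, 504 and 808 CPM against 74.9, 70.6, 84.2, 84.9 and 85.7 CPM and HLA-C at 519.5, 1394, 466, 423 and 407 CPM against 212, 196, 230.4, 234 and 224 CPM. In both, the highest value was that of the SOX2-negative library of pair B, and the other 4 SOX2-negative libraries were still above every SOX2-positive one. TAP1 went the other way, at 0.656, 1.35, 0.428, 0.531 and 0.206 CPM against 7.77, 8.61, 8.11, 10.5 and 8.64 CPM, and PSMB8 stood at 0.119, 0.336, 0.214, 0.212 and 0 CPM against 6.98, 5.32, 4.87, 5.39 and 5.88 CPM. TAPBP (12.05 ± 2.55 against 48.6 ± 2.004 CPM, summed over 5 identifiers) and ERAP1 (10.6 ± 3.73 against 28.1 ± 1.73 CPM) fell with them. TAP2 (4.06 ± 1.65 against 16.5 ± 1.71 CPM, summed over 7 identifiers) fell too, with its call lost when identifiers were not summed. The light chain B2M was not called (32.99 ± 1.66 against 40.5 ± 4.37 CPM, adjusted p = 0.13). HLA-B, HLA-C, TAP1, PSMB8, TAPBP, TAP2 and B2M are each summed over several identifiers of alternate copies of the locus, and reads from one HLA gene can be assigned to another. Counts that moved by over 1.5 times with a pair left out were 5 lower without pair C.

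Because part of this pathway is known to answer to interferon, the promoters of its genes were searched for the core of the interferon-stimulated response element, a pair of TTTC runs with 2 bases between them, on both strands. The search covered the 250 bases before each gene start in the RefSeq promoters of GRCh38.p14. The core was present in 6 of the 12 genes of the list with a window. It stood in 3.3% of all tested genes with a window and in 3.02% of all 35116 windows. Since part of the pathway was known to answer to interferon, a high share could be foreseen and says nothing about the gates. The 6 were TAP1, TAP2, TAPBP, HLA-F, PSMB10 and B2M, of which the first 4 were called lower and the others were called lower only when pair B was left out. HLA-F lost its call with some pairs left out. The stretches of 30 bases around the match are shown for the 3 transport and loading genes and B2M, 5′ to 3′ on the strand of the gene, with the match in capitals. In TAP1, TAPBP and B2M matches overlap and the capitals run on.
TAP1: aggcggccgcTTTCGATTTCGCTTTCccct
TAP2: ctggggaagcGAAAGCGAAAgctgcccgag
TAPBP: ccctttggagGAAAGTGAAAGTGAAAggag
B2M: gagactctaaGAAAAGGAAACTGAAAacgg
They lie at chr6:32853819-32853848 (minus strand, 134 bases before the start), chr6:32838778-32838807 (minus, 58 bases), chr6:33314079-33314108 (minus, 20 bases) and chr15:44711363-44711392 (plus, 144 bases). A match is a run of letters, not a bound site. Interferon-response and STAT genes had 4 higher and 10 lower of 29, or 48.3% called beside 27.7% of all genes. Of these calls, 2 higher and 3 lower held in every leave-one-out fit and went one way in all 5 pairs. A part of interferon in these differences was not tested. IFIT1, an antiviral protein, fell (log2 difference -3.97), as did STAT3 (-0.84), while SOCS3, a feedback inhibitor of cytokine receptors, rose (2.72). With a pair left out the counts became 2 higher without pairs A, C and D, and 4 lower without pairs C and D and 5 without pair A.

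**Figure D3:**
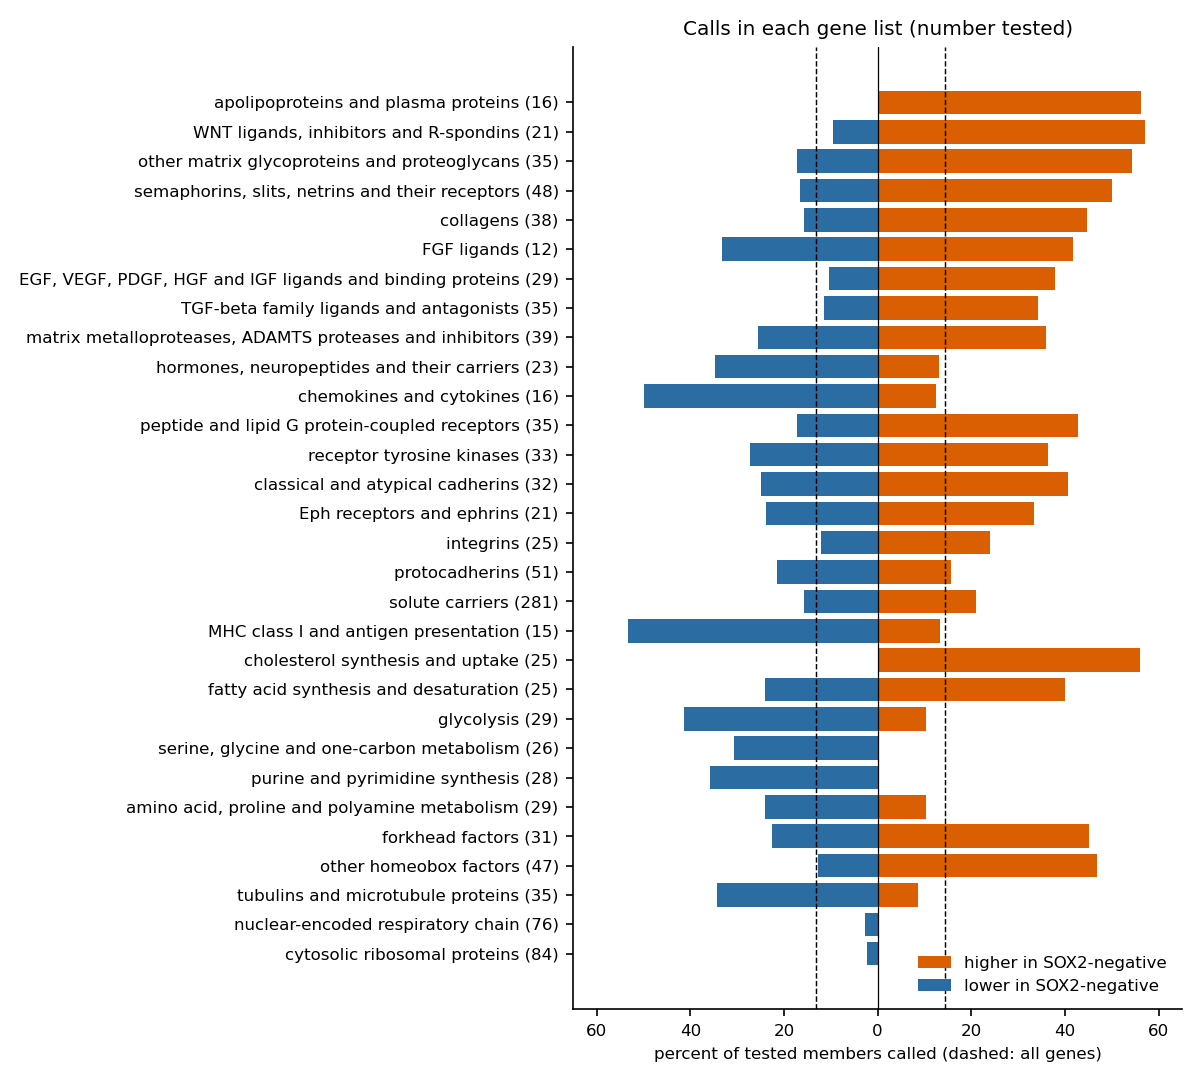
Share of tested members called higher (orange, to the right) and lower (blue, to the left) in SOX2-negative cells for 30 of the gene lists, with the number tested beside each name. Dashed lines mark the shares over all genes, 14.4% and 13.3%. Matrix, guidance and apolipoprotein genes reach far to the right, while ribosomal and respiratory chain genes have almost no calls.

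Of 356 secreted proteins tested, 148 were higher and 63 lower, or 59.3% called beside 27.7% of all genes. With a pair left out, 114 to 168 were higher and 44 to 76 lower. Matrix glycoproteins were mostly higher (19 were higher and 6 lower of 35 tested, with a median log2 difference of 1.03). Fibulin 2, FBLN2, which links fibronectin to elastic fibres, stood at 898, 1683, 1130.1, 1088 and 1105 CPM against 54.9, 59.7, 64.9, 66.7 and 73.5 CPM. FMOD, a small proteoglycan of collagen fibrils, stood at 16.5 ± 18.98 against 0.491 ± 0.751 CPM. EGFLAM, known as pikachurin (45.8 ± 23.1 against 1.32 ± 0.428 CPM), and reelin, RELN (10.3 ± 7.39 against 0.401 ± 0.3104 CPM), rose. Thrombospondin 2, THBS2 (log2 difference -3.49), osteopontin, SPP1 (-2.87), and matrilin 2, MATN2 (-1.86), fell.

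Collagens that rose included chains of the basement membrane and of cartilage (17 were higher and 6 lower of 38 tested, with a median log2 difference of 0.30). COL4A1, a main chain of basement membranes, stood at 952, 692, 1159, 1069 and 973 CPM against 123, 129.7, 152, 144 and 133 CPM. The related chain COL4A6 reached 481 ± 62.7 against 51.4 ± 8.53 CPM, and COL18A1, the source of endostatin, 1272 ± 421 against 425 ± 51.5 CPM. COL2A1, the fibrillar collagen of cartilage and notochord, stood at 297, 517, 298, 217 and 276 CPM against 7.72, 12.4, 8.11, 9.42 and 17.6 CPM. COL9A2, which coats type II fibrils, stood at 777 ± 182 against 27.9 ± 7.86 CPM, and COL19A1 at 6.83 ± 6.18 against 0.139 ± 0.253 CPM. COL22A1 (1.69 ± 0.654 against 7.86 ± 1.52 CPM) and COL14A1 (6.85 ± 1.602 against 16.9 ± 3.36 CPM) fell. Without pair A 3 collagens were lower in place of 6. The laminin chain LAMA1 rose (576 ± 148 against 162 ± 39.3 CPM). Lysyl oxidase, LOX, which cross-links collagen, rose (19.8 ± 2.63 against 2.18 ± 0.679 CPM), as did the proline hydroxylase P3H2 (309 ± 88.9 against 65.4 ± 5.35 CPM). HAS2, which makes the matrix polysaccharide hyaluronan, stood at 349, 156, 458, 525 and 567 CPM against 25.9, 10.5, 35.97, 42.1 and 21.3 CPM, whereas its relative HAS3 fell (26.6 ± 7.201 against 56.9 ± 12.7 CPM).

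Proteases that cut matrix were split (14 were higher and 10 lower of 39 tested, with a median log2 difference of 0.41). ADAMTS18 (log2 difference 4.87), ADAMTS9 (2.87) and the membrane-bound MMP14 (2.15), which activates other proteases, rose. MMP24, a membrane-bound protease of neurons, fell (1.29 ± 0.413 against 17.4 ± 10.6 CPM). Counts that moved by over 1.5 times with a pair left out were 9 higher without pair A, and 6 lower without pair C. The protease inhibitor SERPINE2 rose (709 ± 273 against 243 ± 149 CPM).

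TGF-beta family ligands and their antagonists had more higher than lower calls (12 were higher and 4 lower of 35 tested, with a median log2 difference of 0.66). BMP2 stood at 251, 221, 301, 287 and 252 CPM against 7.03, 7.19, 5.53, 5.16 and 7.602 CPM, with the controls at 11.7 and 15.6 CPM. BMP5 stood at 7.54 ± 7.95 against 0.286 ± 0.198 CPM. CER1, a secreted antagonist of Nodal, WNT and BMP, stood at 38.6, 3.405, 73.95, 214 and 25.2 CPM against 0.399, 0, 2.58, 9.66 and 0.181 CPM. GDF3, a ligand of pluripotent cells, fell (1.55 ± 1.43 against 31.3 ± 24.4 CPM). So did FST, follistatin, which binds activin (23.8 ± 5.44 against 54.2 ± 5.66 CPM), and the BMP antagonist CHRDL1 (2.13 ± 0.669 against 10.6 ± 1.99 CPM). Downstream, the inhibitory SMAD6 (log2 difference 3.88), SMAD9 (2.66) and the Nodal co-receptor CFC1 (4.72) rose, and SMAD3 fell (-1.78).

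WNT ligands and secreted WNT regulators were mostly higher (12 were higher and 2 lower of 21 tested, with a median log2 difference of 1.08). No pair moved these counts by more than 1.5 times. RSPO3, which potentiates WNT signals, stood at 10.7 ± 4.61 against 0.375 ± 0.392 CPM. NOTUM, an enzyme that removes the lipid of WNT proteins, stood at 146, 229, 190, 217 and 106 CPM against 6.78, 3.78, 6.58, 10.8 and 11.6 CPM. DKK1, a blocker of the WNT co-receptor, stood at 65.2, 45.1, 42.4, 30.7 and 9.69 CPM against 1.25, 0.7898, 0.907, 1.07 and 3.303 CPM, and WNT5A at 42.8 ± 30.3 against 2.68 ± 0.515 CPM. SFRP2, which binds WNT proteins outside the cell, fell from 430, 331, 473, 451 and 341 CPM to 65.1, 66.1, 62.2, 71.6 and 36.6 CPM, and WIF1 fell (0.148 ± 0.138 against 1.12 ± 0.434 CPM).

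FGF ligands moved both ways (5 were higher and 4 lower of 12 tested, with a median log2 difference of 0.011, and of -0.075 with upper-quartile scaling). FGF2, the ligand used to maintain stem cells, fell from 132, 142, 125, 124 and 132 CPM to 15.4, 8.07, 18.8, 24.5 and 19.2 CPM. FGF17 rose to 79.6, 55.4, 108, 165 and 20.3 CPM from 1.94, 0.416, 4.82, 11.1 and 1.04 CPM. FGF20 (3.42 ± 0.626 against 0.1297 ± 0.128 CPM) and FGF8 (4.68 ± 1.62 against 0.505 ± 0.485 CPM) rose from near 0, the latter in cells that were given FGF8 protein. With a pair left out the counts of FGF ligands became 2 lower without pairs A, C and D. Of the inhibitors that the FGF and ERK pathway itself induces, 10 of 21 were higher and 3 lower, with no count moved by over 1.5 times by leaving out a pair. Among the higher were the ERK phosphatases DUSP4 (105 ± 25.2 against 7.53 ± 2.29 CPM) and DUSP6 (244 ± 56.96 against 62.04 ± 37.9 CPM). Another phosphatase of the family, DUSP16 (30.7 ± 7.96 against 84.6 ± 11.3 CPM), and the Sprouty protein SPRY3 (4.92 ± 2.67 against 13.9 ± 4.35 CPM) were lower.

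Among other growth factors, NRG2 (log2 difference 3.24), the binding protein IGFBP6 (2.57) and PGF (2.40) rose, while PDGFA fell (-2.43). PDGFA and its receptor PDGFRA thus went opposite ways. Chemokines and cytokines leaned to SOX2-positive cells (2 were higher and 8 lower of 16 tested, with a median log2 difference of -1.27). CXCL3 (log2 difference -4.07), CXCL16 (-2.84) and TNFSF11 (-2.81) fell beside CXCL12, and without pair A 5 of the 16 were called lower. Secretory granule and hormone genes leaned the same way, with 3 higher (5 without pair B) and 8 lower of 23. SCG3, a granule protein, fell (log2 difference -2.57), as did stanniocalcin 2, STC2 (-2.18), and TRH, thyrotropin-releasing hormone, rose (4.77).

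Plasma proteins of liver and yolk sac had 9 of 16 tested members higher and none lower, with a median log2 difference of 2.20. That is 56.25% called beside 27.7% of all genes. The list has 39 members, and one near 0 in SOX2-positive cells passed the filter only where SOX2-negative cells held it. The 9 kept their calls whichever pair was left out. APOE, a lipid carrier, stood at 1330.3, 3401, 1302, 1416 and 889.7 CPM against 599, 515, 538, 548 and 593 CPM. APOA1 (log2 difference 6.18), APOA2 (5.18), fibrinogen alpha, FGA (6.11), and complement C5 (3.57) rose from low levels. The list summed to 3657 CPM in the SOX2-negative library of pair B, 1088 to 1612 CPM in the other 4 and 551 to 643 CPM in the SOX2-positive libraries. TTR and AFP, later markers of liver and visceral endoderm, did not pass the filter on low counts.

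**Figure D4:**
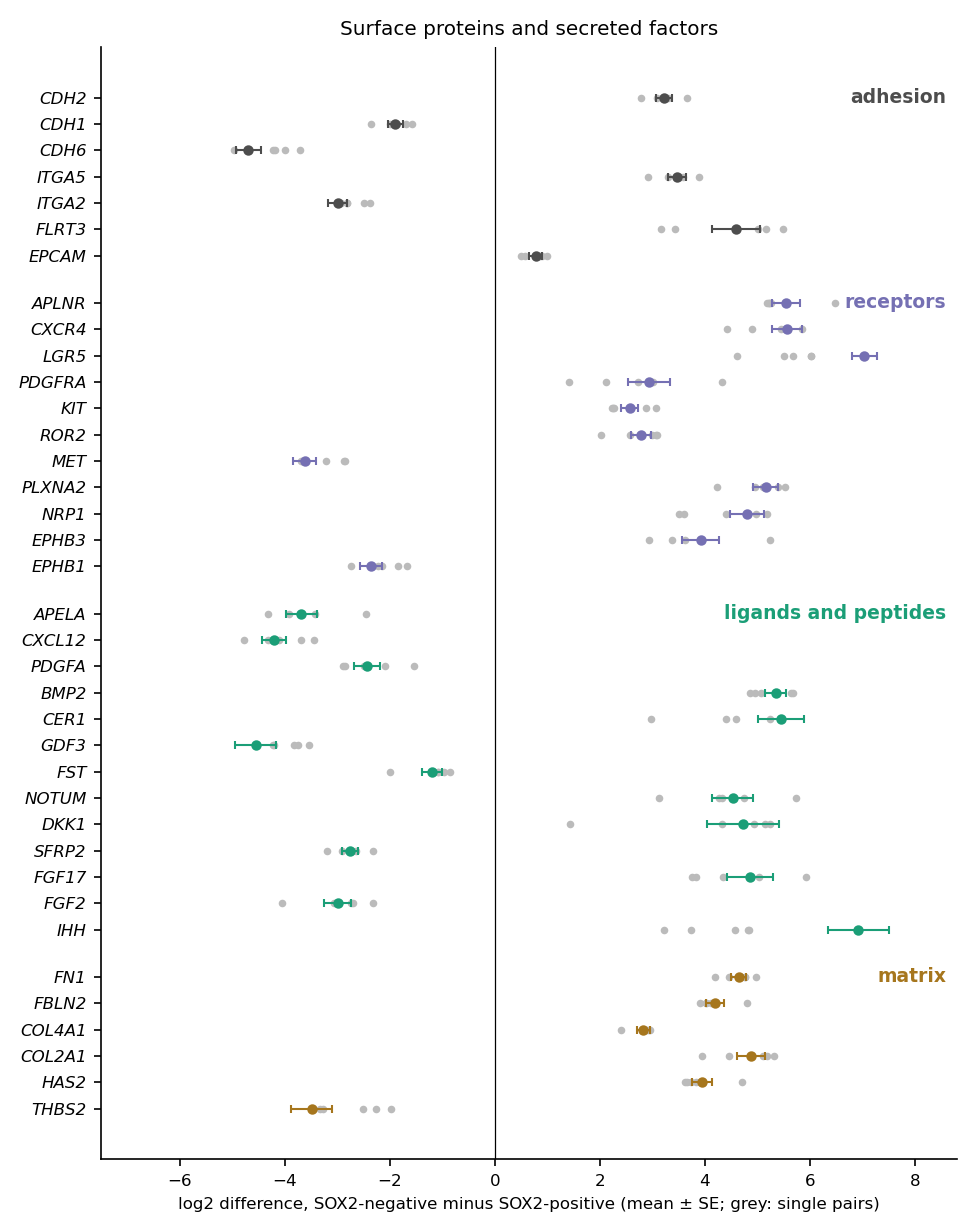
Log2 differences between the gates (x axis) with SE bars for 37 named surface proteins and secreted factors, grouped by family, and in the same rows the differences of the 5 single pairs as grey points. The points add 0.5 CPM before the ratio, so they lie nearer 0 than the fitted value where a level is low, as for LGR5 and IHH. APLNR and CXCR4 lie to the right of 0 and their ligands APELA and CXCL12 to the left.

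Metabolic enzymes had 96 higher and 112 lower of 618 tested, or 33.7% called beside 27.7% of all genes. Single pathways leaned one way. Counts for the class that moved by over 1.5 times were 56 higher without pair A, 59 without pair C and 61 without pair D, and 55 lower without pairs A and C, 58 without pair D and 194 without pair B.

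Cholesterol synthesis leaned up, with 14 of 25 genes higher and none lower and a median log2 difference of 0.54. With upper-quartile scaling 10 were higher and none lower. Each change was small. Mevalonate kinase, MVK, had the largest fold (28.4 ± 9.46 against 12.9 ± 1.56 CPM), and IDI1, which makes the isoprene units, rose too (117 ± 25.2 against 69.7 ± 4.38 CPM). Of the 14 calls, 7 held in every fit. With a pair left out the counts became 7 higher without pair A and 8 without pairs C and D, and 1 lower without pair B. Fatty acid synthase, FASN, stood at 1649.5, 1944, 2259, 2331 and 1679 CPM against 899, 965, 1142, 1213 and 977 CPM, and the desaturases FADS1 (log2 difference 0.89) and SCD5 (2.28) rose, as did DGAT2, which makes triglycerides (1.40). In that list 10 were higher and 6 lower of 25, and 7 and 6 with upper-quartile scaling. The elongase ELOVL7 (3.11 ± 0.610 against 10.1 ± 1.36 CPM) and the carboxylase ACACB (log2 difference -0.74) fell, and with a pair left out the counts became 6 higher without pairs A, C and D, and 2 lower without pairs A and D and 3 without pair C.

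Glycolytic enzymes leaned down, and the transporters at the 2 ends of the pathway rose. Of 29 genes, 12 were lower and 3 higher. The hexokinases HK1 (log2 difference -1.08) and HK2 (-1.03), which trap glucose, were lower by about 2-fold, and PGK1, which yields ATP, was lower too (-0.83). SLC2A3, which brings glucose in, was instead 3.16-fold higher, and SLC16A3, which lets lactate out, 3.38-fold higher. Without pair A, C or D 5 genes were lower, and without pair B 19, so only 5 of the 12 falls held throughout. GAPDH, often used as a reference gene, was called lower (3021 ± 1014 against 4184 ± 317 CPM) but lost the call with a pair left out. Around glycogen, UGP2, which makes UDP-glucose, fell from 379.9, 412, 293, 299.9 and 392 CPM to 67.6, 55.1, 64.6, 71.97 and 65.8 CPM. The phosphorylases PYGL (13.8 ± 2.65 against 42.5 ± 4.04 CPM) and PYGM (1.54 ± 0.574 against 6.53 ± 2.42 CPM), which release glucose from glycogen, fell with it. In that list 1 was higher and 7 lower of 19, with 0 higher without pairs A, C and D and 12 lower without pair B.

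The calls in one-carbon metabolism and nucleotide synthesis were all lower, at 30.8% and 35.7% of the genes tested. Over all genes 27.7% were called, and 13.3% were called lower. In the first, 8 of 26 were lower, with MTHFD1, a central folate enzyme, at 132 ± 10.3 against 231 ± 17.2 CPM and CTH, which makes cysteine, at 11.9 ± 1.71 against 21.01 ± 0.744 CPM. In the second, 10 of 28 were lower, with ADSS of AMP synthesis at 49.8 ± 1.58 against 89.3 ± 5.67 CPM and the purine salvage enzyme HPRT1 at 22.7 ± 3.14 against 38.03 ± 0.666 CPM. Of these calls, 2 and 4 held in every leave-one-out fit. With a pair left out the counts of the first list became 1 higher without pair B, and 2 lower without pair A, 3 without pair C, 4 without pair D and 16 without pair B, and in the second 4 lower without pairs A, C and D. Amino acid enzymes changed more deeply in single genes. BCAT1, which transaminates branched-chain amino acids, fell from 336, 359, 391, 379 and 279 CPM to 70.4, 49.8, 88.8, 106 and 158 CPM. The glutaminase GLS2, which frees ammonia from glutamine, fell (2.26 ± 1.33 against 13.3 ± 1.36 CPM). ASS1 of the urea cycle (172 ± 61.9 against 54.5 ± 4.88 CPM) and PRODH, which degrades proline (85.7 ± 22.2 against 23.8 ± 14.6 CPM), rose. In this list 3 were higher and 7 lower of 29, or 34.5% called, and without pair B 5 and 13.

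Redox and iron genes had 4 higher and 5 lower of 35, or 25.7% called, near the 27.7% of all genes. Of these calls, 2 higher and 2 lower held in every leave-one-out fit and went one way in all 5 pairs. The genes of an iron exporter and an iron uptake receptor went opposite ways. SLC40A1, the exporter, was higher in SOX2-negative cells, and the transferrin receptor TFRC, by which iron enters, was lower there, at 95.3 ± 16.3 against 175 ± 14.5 CPM. TXNIP, an inhibitor of thioredoxin and of glucose uptake, fell from 126, 214, 89.03, 66.5 and 260.4 CPM to 29.6, 68.6, 17.7, 16.6 and 49.3 CPM, and GPX2, a peroxide-removing enzyme of gut epithelium, rose (5.37 ± 2.02 against 0.132 ± 0.118 CPM). In retinoid handling, the uptake protein STRA6 (log2 difference 1.21) rose, and the retinaldehyde reductase DHRS3 fell (-1.93). Enzymes of glycan ends changed both ways. The sialyltransferases ST8SIA4 (log2 difference 4.32), ST6GALNAC2 (4.14) and ST3GAL1 (3.29) rose, and B3GALT5, which builds lacto-series glycans (-2.05), fell. SULF1, which trims sulfate from heparan sulfate, fell from 16.2, 16.6, 25.05, 32.01 and 18.1 CPM to 1.43, 0.126, 2.51, 2.65 and 4.49 CPM. In eicosanoid and lysophospholipid genes, the prostaglandin D synthase PTGDS (log2 difference 2.98) and the lipid phosphatase PLPP4 (4.30) rose, and the lipoxygenase ALOX15 (-4.50) fell.

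**Figure D5:**
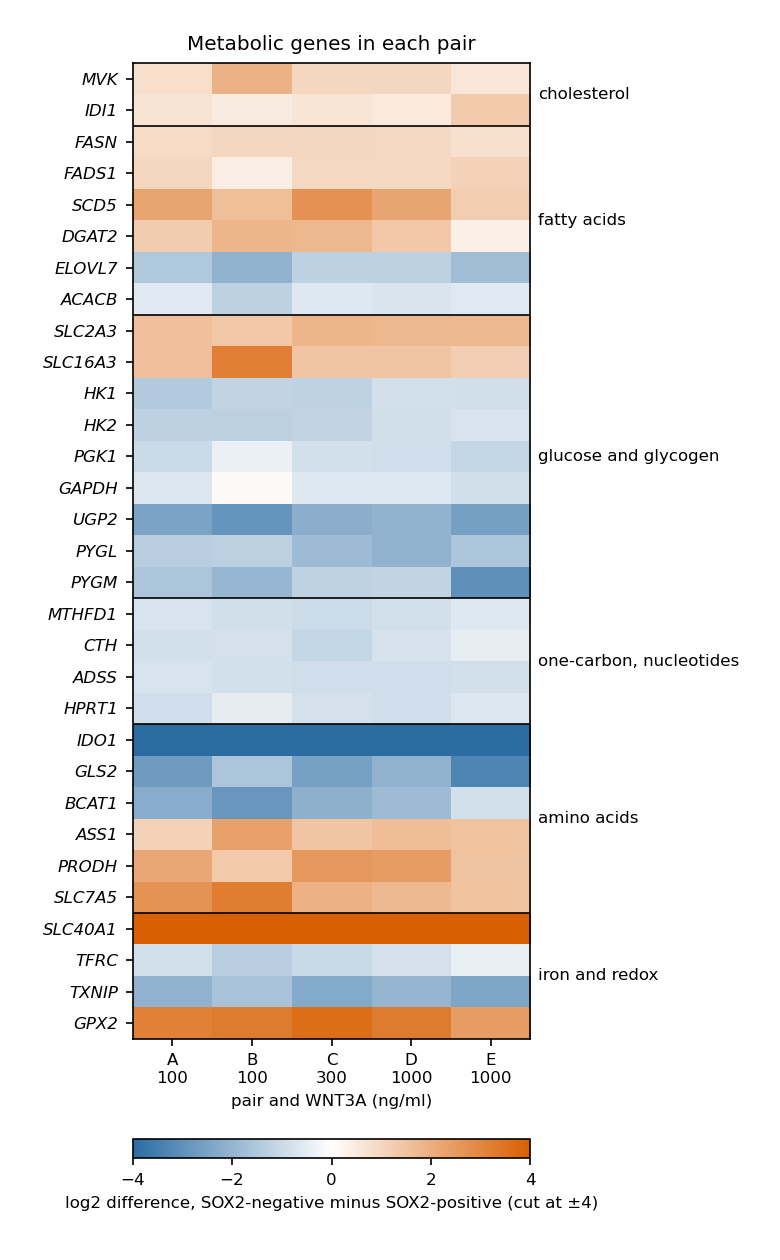
Log2 differences between the gates in each of the 5 pairs (columns A to E) for 31 named metabolic genes grouped by pathway, orange where SOX2-negative is higher and blue where it is lower, with 0.5 CPM added before the ratio and the scale cut at 4 in both directions. Of the 31 genes, 30 have one sign in all 5 pairs. Most were named because they went one way in all 5 pairs, so this count was set by the choice. GAPDH, from the fixed marker set, is the exception. IDO1 is blue and SLC40A1 orange in every pair.

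General cell machinery had few calls. Of 203 genes for cytosolic and mitochondrial ribosomes and the proteasome, 2 were higher and 8 lower, which is 4.93% called. Respiratory chain genes of the nucleus had 2 of 76 lower and none higher, at a median log2 difference of 0.061 (-0.025 with upper-quartile scaling), and mitochondrially encoded genes 1 of 13. With that scaling 14 of the 203, 4 of the 76 and 4 of the 13 were lower. These counts hinge on pair B. Without it, 79 of the 203, 46 of 84 cytosolic ribosomal genes, 20 of 76 respiratory chain genes and 5 of 13 mitochondrially encoded genes were called lower. Without pair A, C or D 1 respiratory chain gene and 0 mitochondrially encoded genes were lower, the latter also without pair E. Respiratory chain genes called higher numbered 1 without pair E and 3 without pair B. One respiratory gene fell in every fit, COX6B2, a subunit form known from testis (1.28 ± 0.562 against 8.37 ± 4.15 CPM). Mitosis and replication genes had 7 of 38 lower and none higher, MCM6, a helicase subunit, among them (200 ± 12.3 against 332 ± 19.4 CPM). Without pair B 17 were lower and 1 higher, and without pairs A, C and D 2 to 3 were lower. Cyclins and their inhibitors had 3 higher and 2 lower of 36, with CCND1, which drives entry to the cell cycle, lower (123 ± 7.42 against 238 ± 12.4 CPM). Without a pair the counts became 1 higher without pair A and 8 without pair B, and 1 lower without pairs A and C and 4 without pairs B and E. ACTB and the RNA-binding LIN28A were not called (4541 ± 867 against 4698 ± 297 CPM and 1788 ± 225 against 1782 ± 68.6 CPM). ACTB was called lower without pair B. For LIN28A the 95% interval of the log2 difference by limma was -0.27 to 0.29, and for ACTB -0.39 to 0.28, so changes of 2-fold lie outside both. CLDN6 (interval -0.66 to 0.44) and TDGF1, a Nodal co-receptor (interval -0.40 to 0.31), were not called either, although TDGF1 was at 253 to 459.8 CPM and 351 to 411 CPM in the gates and at 21.4 and 14.5 CPM in the controls. Vimentin, VIM, a filament of mesenchymal cells, was at 136, 166, 242, 375 and 628 CPM against 159, 205, 136, 158 and 225 CPM and was not called (adjusted p = 0.16, interval -0.04 to 1.27). Its SOX2-negative value lay below its partner in pairs A and B and above it in pairs C, D and E, and without pair B it was called higher (adjusted p = 0.023, edgeR).

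The cytoskeleton changed by member. Keratins and other intermediate filaments had 5 higher and 7 lower of 20. KRT19 (log2 difference 2.13) rose with KRT8 and KRT18, while KRT7 and the neurofilaments NEFM (-3.30) and NEFL (-1.76) fell. Without pair B 8 were higher. Microtubule genes had 3 higher (5 without pair B) and 12 lower of 35. MAP2 (log2 difference -4.12), the kinase DCLK1 (-3.39) and TUBB4A (-2.13), all known from neurons, fell, but STMN2, also neuronal, rose (4.05). The cardiac myosin light chains MYL4 (9.26 ± 4.92 against 0.144 ± 0.158 CPM) and MYL7 (6.596 ± 1.63 against 0.392 ± 0.403 CPM) rose.

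Of 877 genes tested in the transcription factor lists, 166 were higher and 123 lower, or 33.0% called beside 27.7% of all genes. With a pair left out, 129 to 225 were higher and 77 to 178 lower. Zinc-finger (ZNF) genes had 34 higher and 53 lower of 480, or 18.1% called. Other families differed in which side they took. Of 6 GATA factors, 5 passed the filter on low counts, and all 5 were higher. A factor near 0 in SOX2-positive cells could pass only where SOX2-negative cells held it. GATA3 stood at 139.9, 163, 165, 146 and 179.6 CPM against 2.54, 3.87, 3.197, 5.63 and 11.4 CPM, GATA6 at 142 ± 68.2 against 1.85 ± 1.16 CPM and GATA4 (172 ± 48.95 against 2.05 ± 1.42 CPM, summed over 2 identifiers). GATA3 was at 83.2 and 59.4 CPM in the controls, above its SOX2-positive level. Forkhead factors had 14 higher and 7 lower of 31, with FOXA1 (log2 difference 6.03), FOXA2 (5.41) and FOXC1 (5.13) up and FOXB1 (-4.29) down beside FOXD3. Homeobox factors outside the LIM, POU and TALE groups had 22 higher and 6 lower of 47. NKX2-5 (log2 difference 6.43) and MNX1 (5.996) rose, and HESX1 (-3.50) and NANOG (-2.99) fell. NKX2-2, a factor of ventral neural tube and endocrine pancreas, stood at 0.637 to 4.83 CPM and was listed at 0 in every SOX2-positive library. Nuclear receptors had 8 higher and 3 lower of 34, or 32.4% called, not far from the 27.7% of all genes. Among them HNF4A, a regulator of liver genes, rose (24.6 ± 6.19 against 0.272 ± 0.238 CPM). The T-box factors TBX3 (log2 difference 6.39) and EOMES (3.74) rose, as did LHX1 (5.48) and ISL1 (6.11) of the LIM group. LHX1 is summed over several identifiers. None of the 39 HOX genes of the table passed the filter on low counts. Their sum was 1.79, 6.89, 5.56, 13.2 and 53.1 CPM in the SOX2-negative libraries of pairs A to E and 0.399, 0.125, 0.954, 2.02 and 0.996 CPM in their partners, higher in all 5 pairs, with the gates overlapping and most of the total in pair E. Hedgehog genes split, with the ligand IHH and the trap HHIP up and the effectors GLI3 (8.898 ± 5.55 against 39.5 ± 5.02 CPM) and GLI2 (19.8 ± 10.3 against 68.99 ± 10.4 CPM) down (5 higher and 8 lower of 19, with 5 lower without pair A). Among chromatin genes the deacetylase HDAC9 fell (2.402 ± 1.13 against 23.1 ± 3.02 CPM), and the Polycomb subunit PHC2 rose (54.98 ± 15.9 against 19.97 ± 3.63 CPM) while its relative PHC1 fell.

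The letters that GATA factors are known to bind were looked for in the 250 bases before gene starts, on both strands. Of the genes changed by more than 2-fold, 473 higher and 364 lower ones had such a window. TGATAAG stood in 23 of the 473 (4.86%), in 3 of the 364 (0.824%), in 1.35% of the tested genes with a window and in 1.55% of all windows. AGATAAG, the other spelling, stood in 4.02%, 4.4%, 2.19% and 2.36%. The other motifs searched were the TCF/LEF letters CTTTGAT (3.38% of higher, 2.75% of lower and 1.89% of tested genes), the SOX letters ATTGTT (10.1%, 10.2% and 7.15%), the octamer ATTTGCAT (1.9%, 3.02% and 1.78%) and the interferon-stimulated core (2.96%, 4.95% and 3.3%). These shares are descriptions without a test. The stretches of 30 bases around the match are shown for 6 of the 23 higher genes, with the match or its reverse complement CTTATCA in capitals.
MYL7: ggaccttcaggTGATAAGgctgagacataa
F10: cctaagccaagTGATAAGcagccagacaac
LYL1: cagccaggctcCTTATCAggcgcggccagg
SP5: ccagcaaagtcCTTATCAaattcttggagg
HHAT: tccaccttcacCTTATCAtagaaccacctg
SLITRK2: tgtggggtgatTGATAAGtgagggagaggg
They lie at chr7:44141356-44141385 (minus strand, 42 bases before the start), chr13:113122748-113122777 (plus, 40 bases), chr19:13102868-13102897 (minus, 28 bases), chr2:170715291-170715320 (plus, 35 bases), chr1:210328101-210328130 (plus, 140 bases) and chrX:145817658-145817687 (plus, 160 bases). Coagulation factor X, F10, stood at 9.24 ± 4.45 against 1.46 ± 0.2697 CPM and the blood factor LYL1 at 2.82 ± 0.597 against 0.384 ± 0.247 CPM. The WNT target SP5 stood at 357, 458, 352, 295 and 156 CPM against 22.4, 8.77, 35.8, 48.8 and 15.9 CPM. HHAT, which adds the lipid of hedgehog ligands, stood at 6.66 ± 2.44 against 1.61 ± 0.341 CPM and the adhesion protein SLITRK2 at 39.6 ± 12.8 against 3.48 ± 0.6495 CPM. For MYL7 and F10, taken as examples from the windows that overlap no GENCODE 29 exon, the whole 250 bases are shown, from chr7:44141333-44141582 on the minus strand and chr13:113122549-113122798 on the plus strand.
MYL7: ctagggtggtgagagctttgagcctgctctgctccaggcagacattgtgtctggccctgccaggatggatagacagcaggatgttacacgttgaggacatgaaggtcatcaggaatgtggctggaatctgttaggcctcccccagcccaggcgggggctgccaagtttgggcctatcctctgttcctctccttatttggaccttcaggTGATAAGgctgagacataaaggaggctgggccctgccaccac
F10: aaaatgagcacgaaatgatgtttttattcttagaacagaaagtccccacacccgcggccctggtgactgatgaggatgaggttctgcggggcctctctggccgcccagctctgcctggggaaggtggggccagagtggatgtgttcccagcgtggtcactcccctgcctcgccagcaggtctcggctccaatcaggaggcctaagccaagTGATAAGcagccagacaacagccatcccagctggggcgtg

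Markers of cell types that either gate could hold were counted last. Of 168 such genes 126 were tested, with 62 higher and 33 lower, or 75.4% called beside 27.7% of all genes. A marker near 0 in 1 gate passed the filter on low counts only where the other gate held it. High shares of calls among tested markers are therefore partly set by the filter. Of 26 pluripotency genes 19 were lower and 1 higher, with DPPA4 (log2 difference -2.21), L1TD1 (-1.69), GDF3 and UTF1 (-2.95) among the falls and the phosphatase ALPL (1.10) as the rise, beside which 2 more were higher without pair B. Definitive endoderm had 22 of 27 higher, with PRDM1 (111 ± 27.7 against 1.86 ± 0.266 CPM) as a further example, and 1 lower, APELA. Of 21 cardiac and paraxial mesoderm genes 14 passed the filter. Of these, 13 were higher and none lower (1 without pair B), HAND1 (60.3 ± 67.2 against 1.44 ± 2.49 CPM) and MESP1 (31.2 ± 9.93 against 1.35 ± 0.5302 CPM) among those higher. Extraembryonic endoderm had 11 of 14 higher, including GATA4 and HNF4A, which also stand in other lists, and DAB2 (119 ± 52.7 against 7.35 ± 2.199 CPM), an endocytic adaptor. Blood and endothelial markers had 9 of 13 higher from low levels and 1 lower (0 without pairs A, C and D, 2 without pair E), with RUNX1 at 39.5 ± 20.6 against 0.888 ± 0.478 CPM and PECAM1 at 5.51 ± 0.491 against 0.527 ± 0.408 CPM. Amnion and trophoblast markers split, with 6 higher, CDX2 (11.02 ± 6.45 against 0.453 ± 0.377 CPM) among them, and 2 lower, KRT7 and IGFBP3 (3.27 ± 0.665 against 11.5 ± 6.98 CPM). Neural markers had 7 of 14 lower, FEZF1 (1.61 ± 0.731 against 43.3 ± 25.9 CPM) and ELAVL3 (0.152 ± 0.126 against 3.36 ± 1.52 CPM) among them, and 2 higher. Primordial germ cell markers had 4 higher and 3 lower of 12 (2 lower without pairs A, C and D), or 58.3% called. Neural crest markers had 5 higher and 3 lower of 10, or 80.0% called. Several of these genes stand in more than 1 list, and endoderm and mesoderm markers rose in the same libraries. Bulk RNA cannot show whether the same cells carried both.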

How the data were processed

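Polyadenylated RNA of 12 libraries was sequenced in paired 150-base reads, per the labels' protocols. The deposited table holds estimated counts per gene, which the authors made with Salmon on GRCh38, per the submitters' processing notes; version, annotation release and strand setting are not given in the sources used here. Of its values, 76.5% are whole, and all 12 columns matched a sample. The 37951 identifiers were summed to 35940 symbols (1034 with several identifiers) and rounded to whole numbers. Positions and exon lengths came from GENCODE 29, which holds 35003 of the identifiers, and promoters from RefSeq on GRCh38.p14.

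edgeR 4.0.16 in R 4.3.3 fitted the 10 sorted libraries with a term for each pair and one for the gate (TMM scaling, filterByExpr with a minimum count of 10, quasi-likelihood test, Benjamini-Hochberg adjustment over 15161 genes, threshold 0.05, 4 residual degrees of freedom). Changes over 2-fold were tested with glmTreat. A slope on log10 dose was added for the dose test. Differences of single pairs add 0.5 CPM, and limma 3.58.1 gave the 95% intervals. On simulated data for the gate comparison (14947 genes) 52.2% of 2-fold, 95.5% of 4-fold and 98.5% of 8-fold changes were recovered, and 5.2% of calls were false. For the dose slope (14932 genes), 80.7% of slopes of 3 log2 units per 10-fold dose were recovered, and 7.02% of calls were false. In both simulations 200 genes were changed and no library was made to stand apart. The data had 27.7% of genes called and a library that stands apart, so these rates need not hold there.

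The pairing comes from the labels' protocols, by which both gates of a condition were sorted from its colonies. Deviations of partners from their gate means correlated across genes at 0.120 (A), -0.024 (B), 0.172 (C), 0.220 (D) and 0.069 (E). The best correlation with a library that was not the partner was 0.035, 0.157, 0.112, 0.183 and 0.188, above the partner's in pairs B and E. The repeat was a biological repeat. P-values measure the spread between these 5 pairs and take them as independent. Pairs A, C and D shared the first run and B and E the repeat, so spread between runs was not measured apart.

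The comparison and the gene lists were chosen with earlier results of these data known. Genes were named by rule: a fixed marker set, the 15 largest differences per direction by fold (mean of at least 5 CPM) and by CPM, and up to 4 per direction in each list, all with calls that held without any 1 pair. Outside it, 14 genes were named after their values were seen, namely B2M, COL4A6, DAB2, ERAP1, F10, HAS3, HLA-F, LYL1, MNX1, NTN1, PSMB10, SLC39A8, SLC7A5 and SLCO2A1. Some genes are not reported here. The alternatives were other scalings (RLE, upper quartile), other filters, identifiers kept apart, DESeq2 1.42.0, limma-trend, no pair term, a block of the repeat number, all 12 libraries, and each pair left out.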

Additional observations from a re-analysis of the deposited data

Results flagged for a closer look

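For each named gene, the 5 pair differences were searched for a pair far from the other 4, meaning that its gap to the nearest pair took more than 0.710 of their whole range. Chance gives this in about 1 in 20 groups. It occurred in 42 of the 278 named genes (15.1%), 32 times in pair B, 9 times in pair E and 1 time in pair C. Each value below is the log2 difference of that pair, with 0.5 CPM added to both gates, set against the range of the other 4.

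In pair B the rise was larger for APLNR (6.48 against 5.18 to 5.25), F10 (2.87 against 1.95 to 2.19), FBLN2 (4.81 against 3.90 to 4.11), FGF8 (3.67 against 1.93 to 2.25) and FGFR4 (2.32 against 1.23 to 1.54). The same held for FSCN1 (2.66 against 1.55 to 1.75), HLA-B (5.29 against 2.56 to 3.32), HLA-C (2.83 against 0.86 to 1.29), IGFBP6 (4.64 against 1.83 to 2.31) and KRT19 (3.44 against 1.66 to 1.95). The same held for KRT8 (4.37 against 2.55 to 3.05), SLC16A3 (3.16 against 1.21 to 1.54) and SOCS3 (3.44 against 2.33 to 2.57).

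The fall was larger in pair B for AASS (-4.29 against -2.63 to -2.31), ACACB (-1.23 against -0.72 to -0.56), BNC2 (-7.06 against -4.42 to -3.98), DPPA4 (-2.95 against -2.15 to -1.96) and HDAC9 (-4.73 against -2.94 to -2.43). It was also larger for L1TD1 (-2.75 against -1.63 to -1.34), PHC1 (-3.18 against -2.37 to -2.16), PTPRZ1 (-5.79 against -4.08 to -3.82) and USP9X (-3.38 against -1.80 to -1.31).

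The difference was smaller in pair B for CDH8 (2.33 against 3.25 to 3.35), CLDN11 (1.02 against 1.53 to 1.72), COL4A1 (2.41 against 2.86 to 2.95), ERBB2 (-0.60 against -1.23 to -1.12) and FADS1 (0.43 against 0.95 to 1.10). So it was for GJA1 (0.70 against 1.34 to 1.58), KCNH5 (1.23 against 3.05 to 3.45) and LAMA1 (0.98 against 1.87 to 2.15). Pair B had the opposite sign for ACTB (0.44 against -0.29 to -0.16) and GAPDH (0.15 against -0.85 to -0.62). The SOX2-negative library of this pair is the one that stands apart on the third principal component. What sets it apart was not tested.

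Pair E had a larger difference for COL22A1 (-2.85 against -1.92 to -1.58), FST (-1.995 against -1.08 to -0.85), HAS2 (4.70 against 3.62 to 3.83) and IDI1 (1.29 against 0.48 to 0.68). It had a smaller one for DKK1 (1.42 against 4.32 to 5.23), MNX1 (3.08 against 4.20 to 4.59) and SLC1A7 (1.37 against 2.39 to 2.75). Its sign was opposite for LIN28A (-0.38 against 0.027 to 0.14) and TDGF1 (-0.70 against 0.037 to 0.21). DKK1, the WNT antagonist, had the widest gap of these. Pair C had a larger fall of CLDN10 (-1.55 against -1.25 to -1.19).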

How the results depend on the processing

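Under the 10 alternatives that keep all 5 pairs, the number of genes called lay between 3530 and 5204, within 1.5 times of 4197, and the changes over 2-fold between 982 and 1340 where that test was run. Of all 4197 calls, 2302 went one way in all 5 pairs and held in every alternative where the gene was tested. Of the 271 named genes that were called, 267 kept direction and call in every alternative run. Most of these were named because their calls held without any 1 pair, so their share does not speak for all calls. Without the replicate block the pairing was ignored and 3577 genes were called (3412 of them shared with the paired fit), 1935 higher and 1642 lower. That ended the calls of EEF1A1 (adjusted p = 0.063, edgeR) and GAPDH (adjusted p = 0.059) and gave one to VIM (adjusted p = 0.044), as did a block of the repeat number only (adjusted p = 0.012). Without pair B VIM was called higher (adjusted p = 0.023) and ACTB (0.017), B2M (0.0098) and PSMB10 (0.027) lower. Leaving out 1 pair gave 2573 (without A) to 6657 (without B) calls, 1405 to 3440 higher and 1167 to 3217 lower, and for the dose slope 0 to 1174. The cause was not tested. Directions reversed for 4 genes that were not called. Leave-one-out values ran from -0.19 to 0.0025 for ACTB, -0.36 to 0.10 for CLDN6, -0.027 to 0.10 for LIN28A and -0.10 to 0.12 for TDGF1, and LIN28A was at -0.081 with upper-quartile scaling. Changes near 2-fold were recovered least in simulated data, and a gene with no call may still differ.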
